A study of Microtus ochrogaster with 40 samples.

Results

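Cycling nuclei of the prairie vole nucleus accumbens were chosen by 2 transcripts of dividing cells, Mki67 and Top2a. A nucleus was taken when it held at least 2 unique molecular identifiers (UMIs, counts of single captured RNA molecules) of Mki67 and Top2a together and none of Slc17a7, a vesicular glutamate transporter of glutamate neurons. The rule gave 582 nuclei among 185995 kept nuclei, or 0.313%. They came from all 40 animals, with 3 to 42 per animal and a median of 14. Because the rule read Mki67, Top2a and Slc17a7, the levels of these genes, and every contrast between the chosen nuclei and the rest, are given as descriptions with no test.

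The libraries were made from nuclear RNA by the 10X Genomics droplet method, each from the nucleus accumbens of 1 prairie vole (Microtus ochrogaster), a socially monogamous rodent. Animals of both sexes had lived for 16 days with an unfamiliar opposite-sex partner (mate) or an unfamiliar same-sex partner (peer). This gave 11 female mates, 8 female peers, 11 male mates and 10 male peers, with no animal housed alone. Ages, genotypes and the identity of the partners are not given in the sources used here, and partners in the series may not be independent.

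Mki67 encodes the Ki-67 protein, which coats mitotic chromosomes and is made in all active phases of the cell cycle, and Top2a encodes the topoisomerase that untangles replicated DNA. In the adult forebrain most division occurs in the subventricular zone along the lateral ventricle, close to the nucleus accumbens. There, Gfap-positive stem cells give rise to progenitors that express Egfr and Dlx genes, and these give rise to Dcx-positive immature neurons. Oligodendrocyte precursors, marked by Pdgfra and Cspg4, divide throughout the grey and white matter, and microglia renew themselves slowly.

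Kept libraries held 1793 to 8204 nuclei and 3002288 to 14907749 UMIs, with a median per nucleus of 662 to 2201 UMIs. All 6375 barcodes with fewer than 500 UMIs came from male mate 2, which also had the lowest median depth and 3 cycling nuclei, and it was left out in an alternative for the shares. Glutamate neuron-like nuclei made up 0.445% to 23.8% of a library. Of the cycling nuclei, 154 (26.5%) had a barcode that another library also held, against 22.3% of all kept nuclei, and no barcode occurred in more than 1 cycling nucleus.

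Both rule genes were seen in 295 of the 582 nuclei, Mki67 alone in 261 and Top2a alone in 26. The sum of the 2 genes was exactly 2 UMIs in 239 nuclei, 3 in 110 and 4 or more in 233, with a highest value of 19. The nuclei just outside the rule were 663 nuclei with 1 UMI and no Slc17a7, and a further 59 nuclei met the UMI minimum but held Slc17a7. Of those 59, 23 lay among progenitor and immature neuron-like nuclei and 7 among glutamate neuron-like nuclei.

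The label was checked against 109 other cell cycle genes, which the rule did not read. Among nuclei without Slc17a7, their mean sum was 2.67 UMIs in nuclei at 0, 11.9 at 1 UMI, 21.5 at 2, 29.9 at 3 and 42.6 at 4 or more. At least 3 of these genes were present in 34.9% of nuclei at 0, in 75.7% at 1 UMI and in 95.8% at 2 UMIs. These values pool all classes. Within the progenitor and immature neuron-like class they were 49.1%, 93.5% and 98.7%, so the minimum separated less there. Of the 582 nuclei, 239 lay at the minimum itself. Nuclei on either side of it both carried other cycle transcripts, and more of them inside it. Median depth was 1059.5 UMIs in cycling nuclei and 1557 in the others over all classes. Within classes the cycling nuclei were deeper, with medians of 916 against 645 UMIs in progenitor and immature neuron-like, 1311 against 839 in oligodendrocyte precursor-like and 1397 against 620 in microglia-like nuclei.

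Most cycling nuclei carried the markers of neural progenitors and immature neurons. Nuclei were clustered without the listed cell cycle genes and the rule genes, and clusters were named from marker lists. Progenitor and immature neuron-like clusters held 387 of the 582 cycling nuclei (66.5%), in 40 of 40 animals. Oligodendrocyte precursor-like nuclei numbered 65 (11.2%), in 30 animals. A further 60 (10.3%), in 24 animals, lay in a cluster that carried immature neuron and astrocyte markers together and stayed unnamed. It is called the Gfap-Igfbpl1 cluster after its leading genes, a glial filament and a protein of newborn neurons. It was singled out because it held the most cycling nuclei among the unnamed clusters. Another unnamed cluster of 1294 nuclei, led by Fzd5 and Gfap, held 8. These numbers depended on the clustering. At a clustering resolution of 2, an alternative added after the data were seen, the progenitor and immature neuron-like class held 312 of the 582. Another 150 lay in an unnamed cluster of 2996 nuclei that scored highest for ciliated ependymal and next for astrocyte markers.

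The remaining nuclei were thinly spread. Medium spiny neuron-like nuclei, the principal neurons of the accumbens, held 32 and other unnamed clusters 17. Microglia-like nuclei held 7, interneuron-like 4, astrocyte-like 3, mature oligodendrocyte-like 3, endothelial-like 2 and ependymal-like 2. Glutamate neuron-like nuclei held none, and the rule excludes Slc17a7, which they express.

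The 387 nuclei were concentrated within their class. A sub-cluster of 1238 nuclei held 365 of them and was led by Mki67, Bub1 and Kif23, although the listed cycle genes had been left out of the clustering. Cycle genes outside the lists remained in the clustering, and their part in this concentration was not tested. A further pair of immature neuron sub-clusters of 708 and 712 nuclei held 16 and 6, and sub-clusters of 246 and 151 nuclei held none.

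The share of a class that was cycling was then compared between classes within each animal, over animals with at least 20 nuclei of the class. In progenitor and immature neuron-like nuclei it was 13.6% ± 5.11 (SD, n = 38 animals), from 3.70% to 27.1% with a median of 12.8%. In the Gfap-Igfbpl1 cluster it was 7.04% ± 5.80 (n = 23), and in oligodendrocyte precursor-like nuclei 1.22% ± 1.16 (n = 40), from 0% to 5.21% with a median of 0.845%. The remaining classes lay lower, at 0.150% ± 0.396 in microglia-like nuclei (n = 38), 0.0558% ± 0.0773 in medium spiny neuron-like nuclei (n = 40) and 0.0164% ± 0.0584 in astrocyte-like nuclei (n = 39).

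The position of the progenitor and immature neuron-like class depended on how it was drawn. Its sub-cluster of 1238 nuclei is led by cycle genes and holds most of its cycling nuclei, so its differences from the other clusters are given with no test. Its share exceeded that of oligodendrocyte precursor-like nuclei in 38 of 38 animals, by 12.4 percentage points ± 5.38 (SD), and that of the Gfap-Igfbpl1 cluster, which also has Mki67 among its leading genes, in 16 of 23, by 5.57 points ± 6.84. Without that sub-cluster 22 of 1817 nuclei (1.21%) of the class were cycling. The difference from oligodendrocyte precursor-like nuclei was then 0.426 points ± 2.34, higher in 11 and lower in 14 of 29 animals, and that from the Gfap-Igfbpl1 cluster turned to -5.92 points ± 6.31. The parent cluster of 6293 nuclei was the only one clustered again, because it held the most cycling nuclei. With the whole of it taken as 1 class, the difference from oligodendrocyte precursor-like nuclei was 6.63 points ± 3.8, higher in 39 of 40 animals.

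Lineages assigned from the marker UMIs of each nucleus used no cycle gene, but Slc17a7, a rule gene, is among the glutamate neuron markers. The progenitor and immature neuron lineage then took in 14484 nuclei at a median of 1239 UMIs, against 3055 in the clusters. Most of these nuclei therefore lay outside the progenitor and immature neuron-like clusters. The oligodendrocyte precursor lineage took in 10659, against 5804 in the cluster. By that assignment, 2.98% of progenitor and immature neuron nuclei and 0.891% of oligodendrocyte precursor nuclei were cycling, as means over 40 animals. The difference was 2.09 points ± 1.68 (SD), higher in 35 and lower in 5 animals (two-sided sign-flip permutation test over 10 pairs of classes, adjusted p = 1.43e-05, from the smallest p that the permutations can give, 1e-05). This assignment was chosen as an alternative after the data were seen.

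Oligodendrocyte precursor-like nuclei were cycling more often than microglia-like nuclei in 28 animals and less often in 2 of 38, by 1.07 points ± 1.22 (sign-flip permutation test over 15 pairs of clustered classes, p = 1e-05, adjusted p = 2.14e-05). The 15 pairs include those given with no test above. Thinned to 1000 UMIs the difference was 1.42 points over 11 animals and no longer passed (permutation test, adjusted p = 0.123). Thinned to 500 UMIs it was 0.478 points over 38 animals and passed (permutation test, adjusted p = 3.75e-05). Microglia-like nuclei did not differ detectably from medium spiny neuron-like nuclei (0.0925 points ± 0.402, higher in 6 and lower in 17 of 38 animals, permutation test, adjusted p = 0.174).

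Free RNA in droplets can give a UMI to a nucleus that does not make the transcript. Free RNA was not measured here, and medium spiny neurons, which do not divide, serve as the class that should lack the rule genes. Of their nuclei 0.0458% met the rule (32 of 69846, exact 95% binomial interval 0.0313% to 0.0647%, median depth 1951 UMIs). These 32 carried a mean of 13.3 UMIs of other cycle genes against 3.32 in nuclei of the class at 0, and the part of free RNA in this share was not tested. The share was 12.7% in progenitor and immature neuron-like nuclei at a median of 665 UMIs, and 1.12% in oligodendrocyte precursor-like nuclei at 843 UMIs. Microglia-like nuclei stood at 0.139% (7 of 5054, exact interval 0.0557% to 0.285%, median depth 620 UMIs). Thinned to 500 UMIs per nucleus, the shares were 8.12%, 0.534%, 0.0791% and 0.00286% in progenitor and immature neuron-like, oligodendrocyte precursor-like, microglia-like and medium spiny neuron-like nuclei. The 4 classes kept the same order, and the lowest value stood on 2 nuclei. With lineages from marker UMIs the shares were 2.93%, 0.797%, 0.140% and 0.0266%. Intervals and floors cover counting error only.

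**Figure D1:**
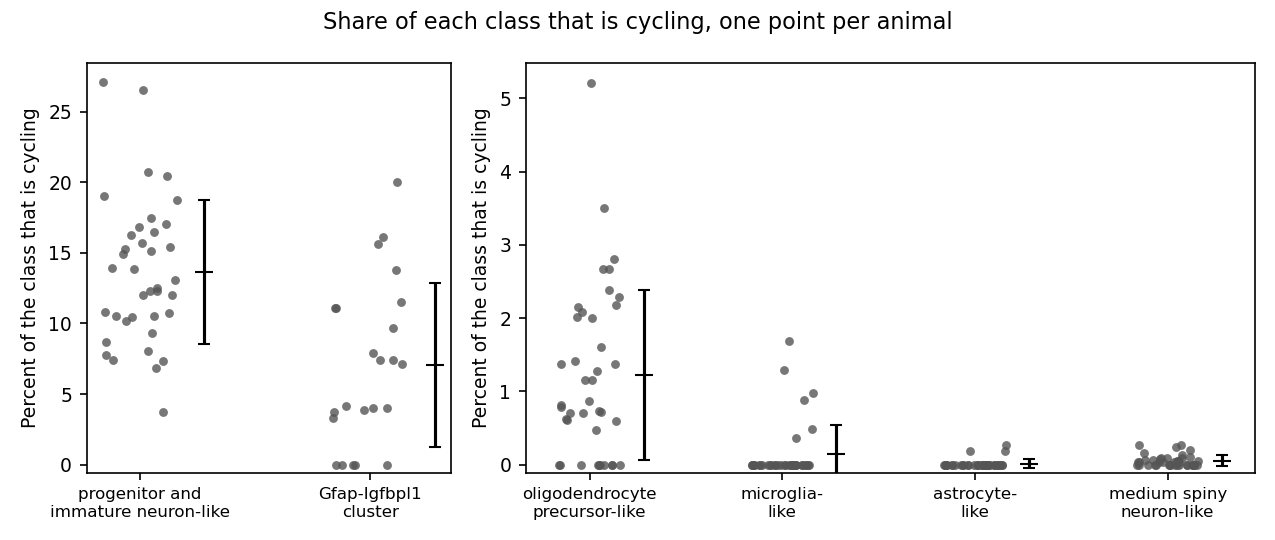
Percent of the nuclei of a class that met the rule for cycling, 1 point per animal with at least 20 nuclei of the class, with the mean and SD beside the points; the left and right panels have different vertical scales. Progenitor and immature neuron-like nuclei average 13.6%, the Gfap-Igfbpl1 cluster 7.04% and oligodendrocyte precursor-like nuclei 1.22%.

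With all classes together, the cycling nuclei were higher in each of the 8 cell cycle lists, and the widest contrasts were in kinetochore and mitotic genes. Levels are CPM, the UMIs of a gene or list summed over nuclei and scaled to a common total, set against nuclei with no Mki67, Top2a or Slc17a7 UMI. The fold threshold used for counts below is a log2 ratio of 1 or more, or -1 or less, computed after adding 5 CPM. Of 16370 genes with at least 10 UMIs, 8.97% were at or above it and 8.27% at or below -1. Since the rule used this contrast, nothing is read from these shares.

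Mitotic kinases, spindle checkpoint proteins and kinesins, which build and watch over the spindle, summed to 4631 CPM against 68.1, a ratio of 68.0. In the 36 animals with at least 5 cycling nuclei their level ran from 1889 to 10898 CPM with a median of 4852. Centromere and kinetochore genes, which attach chromosomes to the spindle, stood at 1703 against 14.4 CPM, a ratio of 118. Condensin and chromatin genes, which compact and package DNA, had a ratio of 17.1, and anaphase and cytokinesis genes 12.2. All 4 lists were higher in cycling nuclei in 36 of 36 animals.

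Of the other lists, cyclins, cyclin-dependent kinases and their transcription factors had a ratio of 15.5, above that of the anaphase list. Lower ratios were those of replication licensing genes, which load the helicase onto DNA, at 8.35, and of replication fork and nucleotide supply genes, at 3.67. All 3 were higher in 36 of 36 animals each. At the fold threshold, 22 of 22 mitotic genes, 11 of 12 kinetochore genes and 9 of 10 licensing genes were higher.

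Inhibitors and pocket proteins, which hold the cycle back, were also higher as a list, with the smallest of the 8 ratios at 3.6, in 36 of 36 animals. At the fold threshold 7 of 11 were higher and none lower. Cdkn2c, which blocks Cdk4 and Cdk6, stood at 259 CPM in cycling nuclei and 1.68 CPM in the others, a ratio of 155. Cdkn1b, a brake on cyclin-dependent kinases, had a ratio of 6.51 and Rbl1, a pocket protein that binds E2f factors, 11.2. Of those within the threshold, Cdkn1a, the p53-induced inhibitor, lay at 8.42 against 13.7 CPM, and Rbl2, a pocket protein of resting cells, at 102 against 174 CPM.

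Within the progenitor and immature neuron-like class, cycling nuclei were set against class nuclei with no UMI of the rule genes, called non-cycling for levels. They differed in mitosis far more than in replication licensing. Of those 2192 non-cycling nuclei, 49.1% held at least 3 other cycle genes, so some may be in the cycle. The part of the choice by Mki67 and Top2a in this contrast was not tested. Mitotic genes stood at 7208 against 568 CPM, a ratio of 12.7, and kinetochore genes at a ratio of 12.6. Both were higher in 33 of 33 animals with at least 5 cycling nuclei of the class. Replication licensing genes were at 486 against 403 CPM, a ratio of 1.21, and were higher in 18 of 33 animals. In all nuclei at 0 the licensing list summed to 48.8 CPM, so the non-cycling nuclei of this class lay far above that level. Within the sub-cluster that holds 365 of the cycling nuclei, mitotic genes had a ratio of 5.02 (32 of 32 animals), and licensing genes were at 497 against 970 CPM, higher in 4 of 32.

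**Figure D2:**
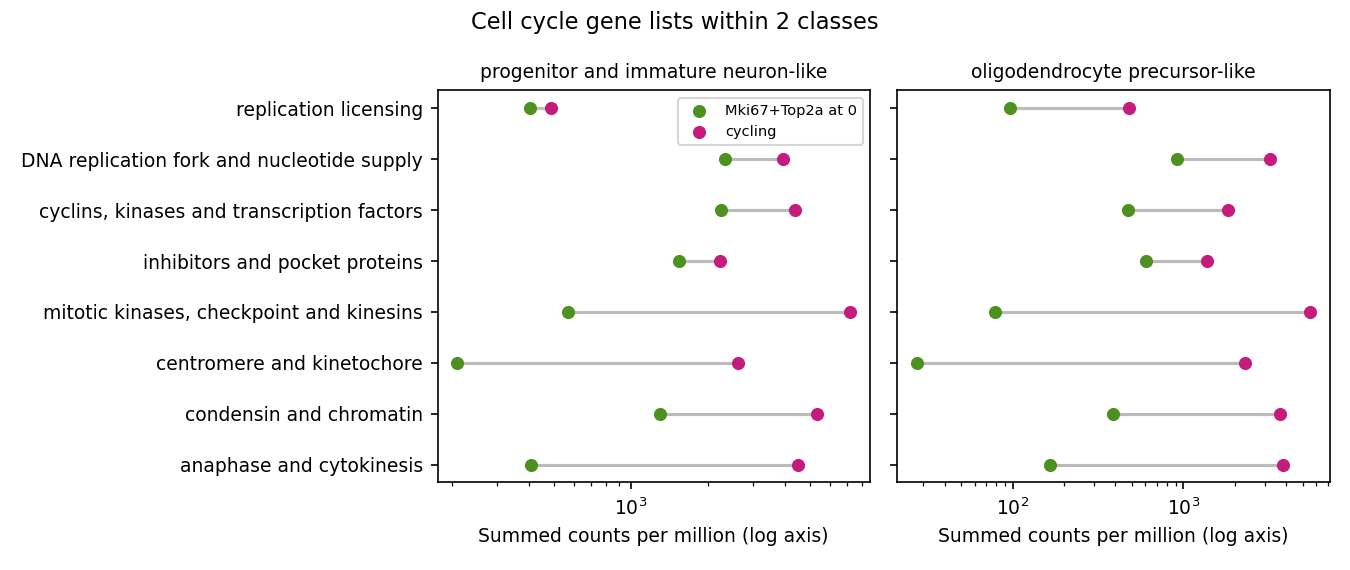
Summed level of 8 cell cycle lists, in CPM on a log axis, in cycling nuclei and in nuclei without Mki67 or Top2a UMIs of the progenitor and immature neuron-like class (left) and the oligodendrocyte precursor-like class (right). The 2 points of replication licensing lie close together on the left, at 486 and 403, and apart on the right, at 480 and 96.8.

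Summed over the animals of a group, mitotic genes in the cycling nuclei of this class were at 7630 CPM in female mates, 7950 in female peers, 6646 in male mates and 6158 in male peers. Licensing genes were at 359, 346, 642 and 692 CPM in the same order, from 41 to 66 UMIs per group. These sums over nuclei carry no test.

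The following genes are from the cyclin, anaphase, replication and licensing lists. Cdk1, the kinase that drives entry into mitosis, had 369 CPM against 21.4. Ccnb2, its cyclin partner, had 101 against 3.24 CPM, and Ube2c, which tags cyclins for destruction at anaphase, 740 against 27.2 CPM. Rrm1, a subunit of the enzyme that supplies deoxynucleotides, had 508 against 180 CPM and was higher in 31 of 33 animals. Mcm6, a subunit of the replicative helicase, had 132 against 122 CPM, and Pcna, the sliding clamp of the replication fork, 117 against 94.7 CPM. The last 2 were higher in 15 and 14 of 33 animals.

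A D-type cyclin was abundant in both sets of nuclei. Ccnd2, the D-type cyclin of neural progenitors, was at 2184 CPM in cycling and 1696 CPM in non-cycling nuclei, a ratio of 1.29, higher in 26 of 33 animals. Cdkn2c was at 362 against 51.2 CPM, and Cdkn2d, of the same inhibitor family, at 146 against 34.4 CPM. Btg1, an antiproliferative factor, was lower, at 378 against 569 CPM, and higher in 6 of 33 animals.

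Over the whole class, progenitor markers were higher and neuronal markers lower in the cycling nuclei, and both directions turned within the sub-cluster that holds most of them. Of the 387 cycling nuclei 365 lie in that sub-cluster, which scored highest for the progenitor list, while the other sub-clusters of the class scored highest for the immature neuron list. The neural progenitor list summed to 3008 CPM against 1486, a ratio of 2.02, and was higher in 31 of 33 animals. The immature neuron list summed to 8471 against 10901 CPM, a ratio of 0.777, and was higher in 7 of 33. The pan-neuron list had a ratio of 0.546 and was higher in 4 of 33. At the fold threshold, 5 of the 15 progenitor genes with at least 10 UMIs (of 20 found) were higher and none lower, while 4 of 16 immature neuron genes were lower and none higher, against 5.35% higher and 8.65% lower among 11080 genes of the class.

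Within the sub-cluster, 365 cycling nuclei were set against 581 with no UMI of the rule genes, a contrast added after the data were seen. The neural progenitor list had a ratio of 0.849 there and was higher in 11 of 32 animals with at least 5 nuclei of both kinds. The immature neuron list had a ratio of 1.21 (23 of 32) and the pan-neuron list 1.07 (19 of 32). Egfr was at 342.5 against 701 CPM and higher in 6 of 32 animals, and Notch1 at 657 against 835 CPM, higher in 12. Meis2 was at 789 against 680 CPM, higher in 19, and Dcx at 190 against 155 CPM, higher in 16. The summed levels of these 4 genes lay in the opposite order to those over the whole class. Vim, at 434 against 248 CPM, kept its direction. The gene values that follow are over the whole class.

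Among the progenitor genes, Vim, an intermediate filament of immature glia and progenitors, had 424 against 128 CPM, and Fabp7, a fatty acid binding protein of radial glia, 151 against 44.1 CPM. Notch1, the receptor that keeps progenitors undifferentiated, had 623 against 261 CPM and was higher in 28 of 33. Insm1, a transcription factor of intermediate progenitors, had 242 against 102 CPM. Egfr, the growth factor receptor of transit-amplifying cells, had 323 against 207 CPM, a ratio of 1.56.

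Among the immature neuron genes, the Dlx factors that specify forebrain GABA neurons were somewhat higher in cycling nuclei, with Dlx1 at 1164 against 943 CPM and Dlx2 at 1015 against 834 CPM. Of the 4 immature neuron genes at or below the fold threshold, Meis2, a transcription factor of newborn olfactory interneurons, was at 845 against 2079 CPM and higher in 0 of 33 animals. Robo2, a guidance receptor of migrating neuroblasts, was at 88.6 against 274 CPM. Dcx, the microtubule protein of migrating neuroblasts, was at 194 against 416 CPM, higher in 6 of 33. Tubb3, a neuronal tubulin, had a ratio of 0.482 and was higher in 3 of 33. From the pan-neuron list, Gad1, which makes GABA, had a ratio of 0.358 and was higher in 3 of 33.

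These levels came from overlapping sets of nuclei. Of the 387 nuclei, 69.8% held a UMI of Dlx1 or Dlx2 and 60.2% one of Igfbpl1. Egfr was seen in 23.5% and Dcx or Cd24a in 32.6%. A UMI of Gfap, the filament of stem cells and astrocytes, was seen in 10 nuclei (2.58%). At a median depth of 916 UMIs, a nucleus without a UMI of a gene cannot be called negative for it. Of the markers of other cells, the astrocyte list summed to 2227 CPM against 1690 in the non-cycling nuclei, with a UMI in 70.8% of the 387, and was higher in 20 of 33 animals. The oligodendrocyte precursor list summed to 956 against 604 CPM and was higher in 25 of 33, and medium spiny neuron markers to 850 against 972 CPM. Interneuron markers summed to 237 against 626 CPM and were higher in 4 of 33. Microglia markers summed to 148 CPM and endothelial markers to 9.58 CPM, and no UMI of the other immune list was seen. The part of these markers in the results was not tested. Predicted doublets were 2 of the 387 (0.517%), against 2.09% of the class.

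**Figure D3:**
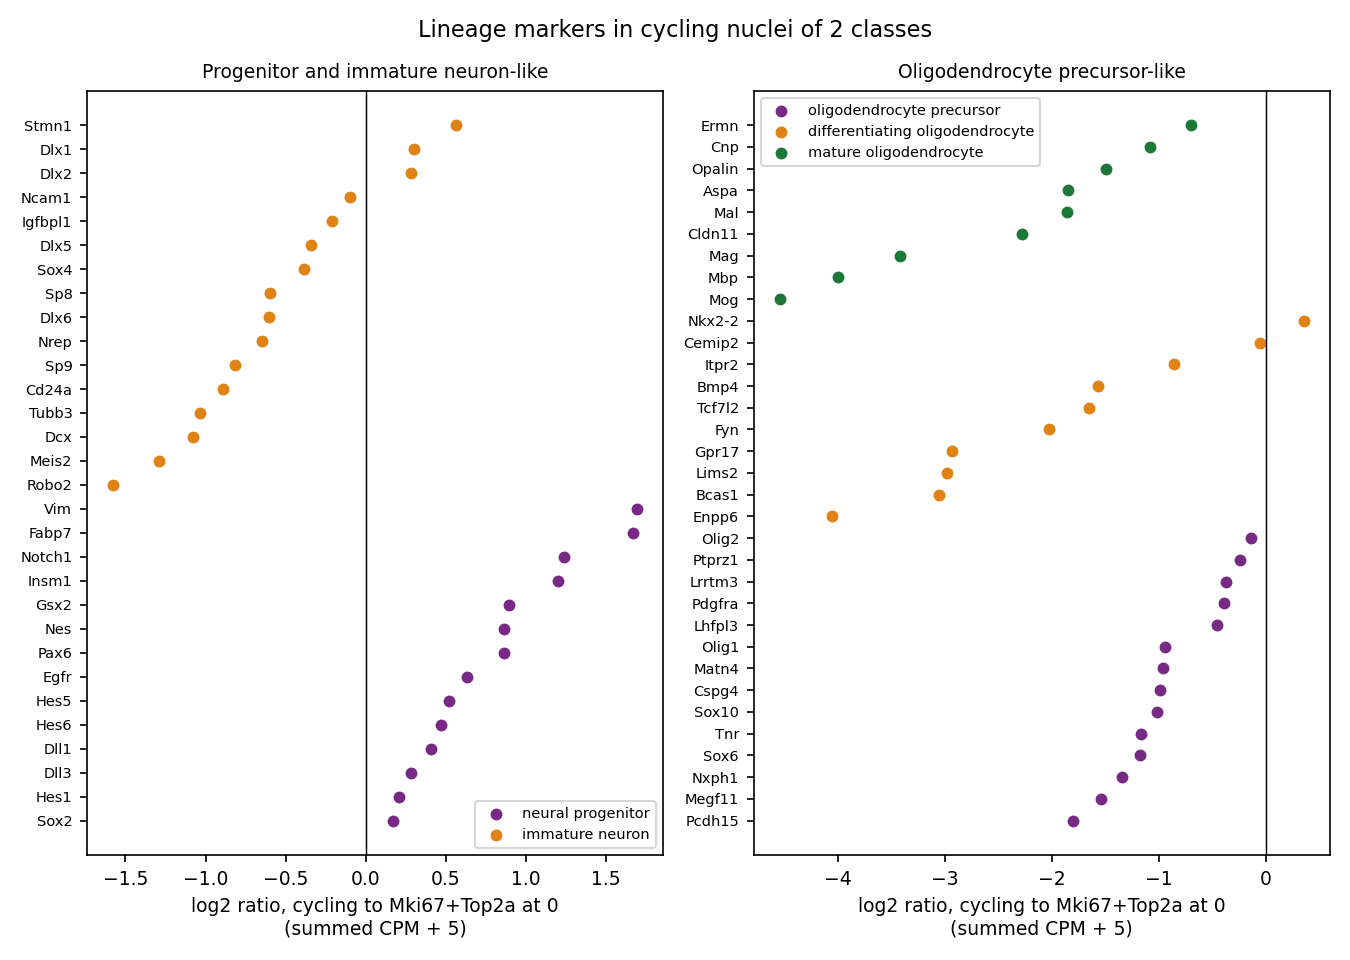
Log2 ratio of the summed level in cycling nuclei to that in nuclei of the same class without Mki67 or Top2a UMIs, after adding 5 CPM, for lineage markers with at least 10 UMIs. Progenitor genes such as Vim and Notch1 lie right of 0 and neuronal genes such as Meis2 and Robo2 left of it, and Gpr17, Bcas1 and Mbp lie far left in the oligodendrocyte precursor-like class. The ratios are over whole classes, and within single clusters those of Notch1, Meis2 and Mbp lay on the other side of 0.

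By the rule for named genes, the genes highest in this class relative to other cycling nuclei were Emp1, an epithelial membrane protein, at 194 against 22.5 CPM, Igsf9, an immunoglobulin family protein, at 247 against 41.3 CPM, and Slc12a7, a potassium-chloride cotransporter, at 50.3 against 5.63 CPM. Ccdc77 and Parpbp came next, at 95.8 against 15.0 and 136.5 against 24.4 CPM. Mfap4, an extracellular matrix protein, was sixth at 465 against 97.6 CPM, and Cenpl, a centromere protein, seventh at 194 against 39.4 CPM. An unnamed gene, Zbtb39 and Lnpk completed the 10.

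The Gfap-Igfbpl1 cluster showed another pattern. In its 60 cycling nuclei the immature neuron list was at 8751 CPM against 4480 in the non-cycling nuclei of the cluster, a ratio of 1.95, and the astrocyte list at 5704 against 12541 CPM, a ratio of 0.455. With 3 animals holding at least 5 of these nuclei and 2 that could be compared, no spread over animals is given for these levels. Of 15 immature neuron genes 7 were higher and none lower, and of 14 astrocyte genes 9 were lower and none higher, where 5.8% of 10031 genes were higher and 11.1% lower. Dlx1 was at 852 against 270 CPM, Dcx at 310 against 125 CPM and Igfbpl1 at 1395 against 702 CPM. A UMI of Dlx1 or Dlx2 was seen in 78.3% of the 60 nuclei, of Dcx or Cd24a in 56.7%, of Egfr in 26.7% and of Gfap in 21.7%. Slc1a3, an astrocyte glutamate transporter, was at 847 against 2336 CPM, and Gfap at 132 against 350 CPM.

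Its cycling nuclei were deeper than the rest of the cluster, with a median of 2451 UMIs against 680. Of the 60, 10 (16.7%) were called doublets, against 10.1% of the cluster. The part of depth and doublets in this pattern was not tested. Astrocyte genes were among those highest in these nuclei relative to other cycling nuclei, with Gja1, an astrocyte connexin, at 852 against 201 CPM, Agt, angiotensinogen, at 489 against 114 CPM, and Slc7a11, the cystine-glutamate exchanger, at 779 against 166 CPM. Vip led that order, but all 20 of its UMIs came from 1 animal.

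Cycling oligodendrocyte precursor-like nuclei carried Pdgfra and were lower in Gpr17 and Bcas1 than the other nuclei of the class. At a resolution of 2, a cluster of 439 differentiating oligodendrocyte-like nuclei, led by Enpp6 and Gpr17, separated from the precursor-like one and held 0 cycling nuclei, and all 65 stayed in the precursor-like one. Pdgfra, the growth factor receptor of precursors, was at 3138 CPM in the 65 cycling nuclei and 4125 CPM in the 5280 others of the class, and a UMI of it was seen in 98.5% and 87.8% of nuclei. Gpr17, a receptor of precursors committed to differentiate, was at 400 against 3097 CPM. Bcas1, a marker of early myelinating cells, was at 285 against 2402 CPM, and Mbp, a major myelin protein, at 80.0 against 1354 CPM.

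As lists, the precursor genes had a ratio of 0.681, the differentiating oligodendrocyte genes 0.203 and the mature oligodendrocyte genes 0.143. At the fold threshold, 6 of 14, 7 of 10 and 9 of 10 of their genes were lower and none higher. Among 12366 genes of this class 14.7% were lower and 9.57% higher. Within the precursor-like cluster at a resolution of 2, against 4868 nuclei, Gpr17 was at 400 against 2661 CPM and Bcas1 at 285 against 1756 CPM. Mbp was at 80.0 against 75.4 CPM there, so it was not lower there. The ratios of the precursor, differentiating and mature lists were 0.632, 0.254 and 0.363. These values were added after the data were seen.

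The cycle genes separated more widely here than among progenitors. Mitotic genes were at 5530 against 78.5 CPM, a ratio of 70.5, kinetochore genes had a ratio of 83.9 and licensing genes 4.96. Ccna2, the S and G2 phase cyclin, was at 338 against 1.38 CPM, Kif23, a kinesin of the midbody, at 596 against 2.36 CPM, and Cdkn2c at 498 against 7.28 CPM. Ccnd1, a D-type cyclin, was at 213 against 154 CPM, and Mcm7, a helicase subunit, at 133 against 8.06 CPM. With 1 animal holding 5 or more of these nuclei, no spread over animals can be given for their levels.

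Of the 65 nuclei, 20 (30.8%) were called doublets, against 7.29% of the class. Medium spiny neuron genes summed to 3521 CPM in the cycling and 1569 CPM in the non-cycling nuclei, with 4 of 13 markers higher at the fold threshold and Penk, an opioid precursor, at 1334 against 328 CPM. Without predicted doublets, 45 cycling nuclei were left and the medium spiny neuron list stood at 687 against 835 CPM, so its direction turned. In the same nuclei the precursor list had a ratio of 0.831, the differentiating list 0.214, the mature list 0.154 and the mitotic genes 97.3, so these 4 kept their directions.

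The genes highest in these nuclei relative to other cycling nuclei were Plpp4, a lipid phosphatase, at 445 against 2.39 CPM, Pdgfra at 3138 against 50.1 CPM, and Cav1, a caveolar protein, at 551 against 5.97 CPM. Susd5, Kank1, Sstr1, Gpr17, Brinp3, Calcrl and Cspg4, the NG2 proteoglycan of precursors, completed the 10. Pdgfra, Gpr17 and Cspg4 are also markers that named the class.

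Microglia-like cycling nuclei numbered 7, from 6 animals, and their levels are given without a spread over animals. All 7 held UMIs of Ctss, a lysosomal protease of microglia, and 85.7% held Csf1r, the receptor that sustains microglia. Mitotic genes summed to 4287 CPM, from 40 UMIs, against 102.8 CPM in the other nuclei of the class. The microglia list summed to 20255 CPM against 37490 CPM in the other microglia-like nuclei. Among the lists of other cells that were higher, the neural progenitor list was at 1715 against 343 CPM (16 UMIs), the other immune list at 4716 against 940 CPM (44 UMIs) and the endothelial list at 750 against 76.5 CPM (7 UMIs, all in 1 of the 7 nuclei). Most of their genes were not higher. At the fold threshold 3 of 10 progenitor genes were higher and 5 lower. For other immune genes it was 1 of 6 higher and 3 lower, and for endothelial genes 1 of 5 higher and 4 lower. Among 11947 genes of the class, 1961 were higher and 6915 lower. The part of these markers in the result was not tested. Cd74, an antigen presentation chaperone, is a gene of the other immune list and held 42 of that list's 44 UMIs, in 3 animals. It was at 4501 CPM in the cycling nuclei and 441 CPM in the others. Of the 7 nuclei, 2 were called doublets, against 9.22% of the class.

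The 32 medium spiny neuron-like cycling nuclei stood apart from their class in depth, with a median of 2699.5 UMIs against 1951. At least 3 other cycle genes were present in 27 of them (84.4%), against 47.6% of class nuclei at 0. At least 2 of 11 progenitor and immature neuron markers were present in 14 (43.8%), against 4.20%. Doublets were called in 5 of the 32 (15.6%), against 2.15% of the class. The summed level of the other cycle genes at 2 UMIs was 3667 CPM in this class and 24919 CPM in progenitor and immature neuron-like nuclei.

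The share of cycling nuclei was compared between mates and peers and between the sexes, with the animal as the replicate. It was 0.359% ± 0.157 in female mates (n = 11), from 0.158% to 0.662% with a median of 0.340%. In female peers (n = 8) it was 0.473% ± 0.317, from 0.194% to 1.06% with a median of 0.368%. In male mates (n = 11) it was 0.297% ± 0.136, from 0.0491% to 0.519% with a median of 0.315%, and in male peers (n = 10) 0.246% ± 0.108, from 0.0667% to 0.389% with a median of 0.259%. The 4 groups overlapped widely, and the 2 highest animals were female peer 3 and female peer 8, at 1.06% and 0.870%.

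No difference passed the threshold after adjustment over 5 tests. Mates minus peers was -0.0316 percentage points ± 0.0664 (SE; two-sided permutation test, p = 0.623, adjusted p = 0.623). Its direction turned without female peer 3 (0.0101 points) and after thinning to 500 UMIs (0.00884 points), and neither value passed (permutation test, adjusted p = 0.852 and 0.810). Females minus males was 0.144 points ± 0.0664 (permutation test, p = 0.0203, adjusted p = 0.101). The pairing difference was -0.114 points in females and 0.0512 in males, and the test of their difference gave -0.166 points ± 0.133 (permutation test, adjusted p = 0.442). Without female peer 3 the female difference was -0.0310 points and the female minus the male difference -0.0822 points ± 0.112, and after thinning to 500 UMIs they were -0.0188 and -0.0553 points.

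By class, the lowest p between females and males was for cycling progenitor and immature neuron-like nuclei, at 0.294% and 0.171% of all nuclei (difference 0.123 points ± 0.0524, permutation test, p = 0.00832, adjusted p = 0.166 over 20 tests), which did not pass. The share of the class itself that was cycling was 14.5% in females and 14.0% in males, a difference of 0.546 points ± 1.90 (permutation test, adjusted p = 0.880 over 20 tests). For mates and peers these shares were 15.8% and 12.8%, a difference of 3.00 points ± 1.90 (permutation test, adjusted p = 0.513). The minimum of 20 nuclei of the class per animal was not applied to either comparison. Both therefore include male mate 2, at 33.3% (2 of 6 nuclei), and male peer 5, at 25% (1 of 4 nuclei). These were the highest values of their groups and raised the male mean, so equal shares in the sexes cannot be read from the difference. Cycling oligodendrocyte precursor-like nuclei made up 0.0289% of nuclei in mates and 0.0457% in peers (difference -0.0168 points ± 0.0100, permutation test, adjusted p = 0.446).

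**Figure D4:**
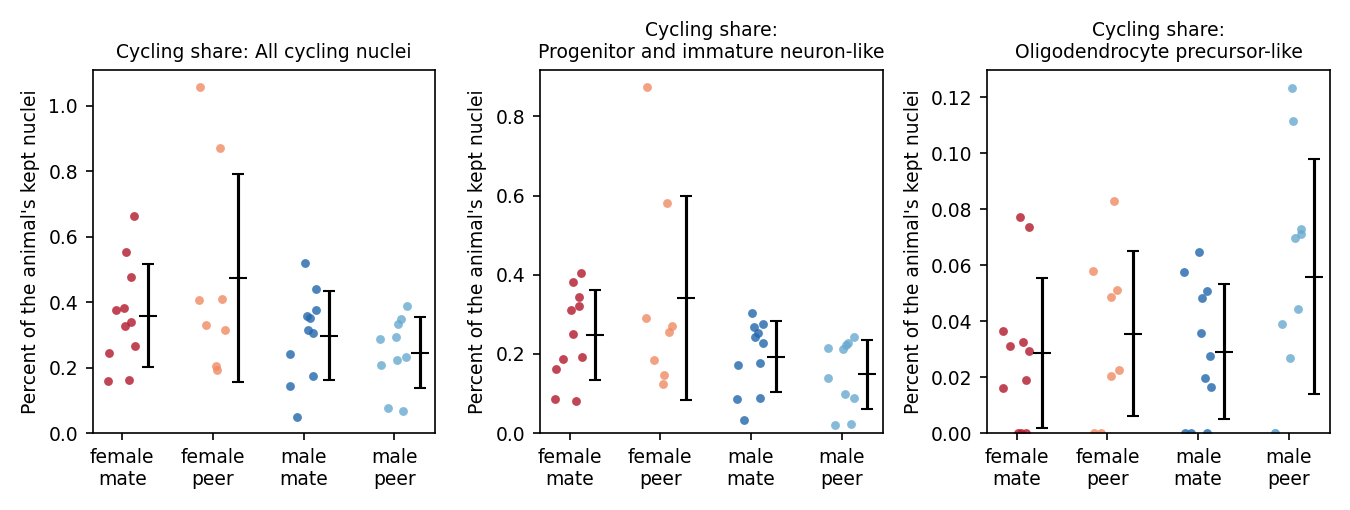
Cycling nuclei as a percent of the kept nuclei of each animal, in all classes (left), as progenitor and immature neuron-like (middle) and as oligodendrocyte precursor-like nuclei (right), with the mean and SD of each group beside its points; the panels have different vertical scales. Female peers range from 0.194% to 1.06% in the left panel and overlap all other groups.

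Animals with more non-cycling progenitor and immature neuron-like nuclei held more cycling nuclei. Non-cycling here means every nucleus of the class that did not meet the rule. These include 279 with 1 UMI of Mki67 or Top2a and no Slc17a7, and 23 that met the UMI minimum but held Slc17a7. The parent cluster of this class was clustered again because it held the most cycling nuclei. The relations of this class are therefore given with no test. Over 40 animals the 2 shares of kept nuclei correlated with r = 0.884 and rho = 0.729. Without the 2 animals farthest from the median on the x axis, r was 0.728. Counting only nuclei with no UMI of Mki67, Top2a or Slc17a7 as non-cycling, r was 0.887, and leaving out the sub-cluster led by cycle genes it was 0.880. Within mates r was 0.786 and within peers 0.932, and within females it was 0.925 and within males 0.690. The Gfap-Igfbpl1 cluster was singled out for its cycling nuclei, so its relation is given with no test too. Its non-cycling share gave r = 0.822 and rho = 0.684, or r = 0.629 without the 2 farthest animals.

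For oligodendrocyte precursors no relation was detected. Their non-cycling share correlated with the share of cycling nuclei at r = 0.0226 and rho = -0.0340 (permutation test, adjusted p = 0.884 and 0.881), and with the share of cycling oligodendrocyte precursor-like nuclei at r = 0.0502 and rho = 0.0244 (adjusted p = 0.884 and 0.881). The microglia-like share gave r = 0.354 and rho = 0.240 (permutation test, p = 0.0237 and 0.137, adjusted p = 0.0355 and 0.205), and r = 0.257 without the 2 farthest animals, which did not pass (permutation test, adjusted p = 0.177). Shares within an animal have the same denominator and the libraries differ in depth. In the thinned set of 1000 UMIs, from which 33.6% of nuclei were left out for depth, the oligodendrocyte precursor-like relation was r = 0.629 (permutation test, adjusted p = 0.0001), so the value depends on that setting.

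**Figure D5:**
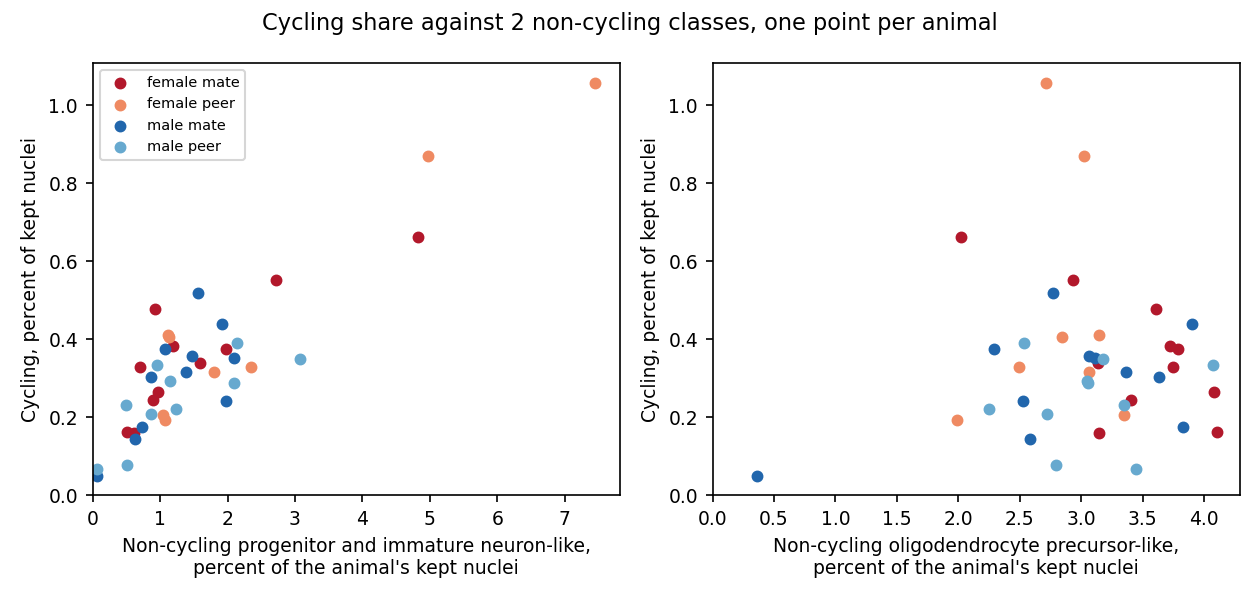
Share of cycling nuclei (vertical axis) against the share of non-cycling progenitor and immature neuron-like nuclei (left) and oligodendrocyte precursor-like nuclei (right), each a percent of an animal's kept nuclei, 1 point per animal coloured by group. The points rise together on the left, with r = 0.884, and show no trend on the right, with r = 0.0226.

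Expression in cycling nuclei was compared between groups on counts summed per animal. With all classes together, 36 animals with at least 5 cycling nuclei entered (11 female mates, 7 female peers, 10 male mates and 8 male peers) and 504 genes passed the filter on low counts. No gene passed an adjusted p of 0.05 in edgeR's quasi-likelihood test (0% called), between mates and peers or between females and males. At an unadjusted p under 0.05 there were 6 and 12 genes. DESeq2 called 0, while edgeR without the filter on low counts, over 13964 genes, called 2 between mates and peers and 4 between females and males. In simulated data of the comparison of mates and peers with 504 genes, of which 200 were changed by a fold of 2 or 4, 97% of genes changed by a fold of 2 and 100% of those changed by a fold of 4 were recovered, with 2 false calls in all. The simulation gave every gene the same spread between animals and changed a large part of the genes. It therefore cannot show that changes of this size are absent from the real data.

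The genes with the lowest p were Acsl3, a fatty acid ligase, at 458 CPM in mates and 625 in peers, Smg1, a kinase of RNA surveillance, at 405 and 297 CPM, and Itgb8, an integrin, at 299 and 444 CPM. All had an adjusted p of 0.997 in edgeR. For females against males they were Ube2c at 598 and 420 CPM, and the RNA-binding genes Taf15 at 360 and 517 CPM and Hnrnpd at 378 and 524 CPM, with adjusted p = 0.998 in edgeR.

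Within the progenitor and immature neuron-like class, 33 animals (11, 7, 9 and 6 in the same order) and 142 genes could be tested. Mates and peers differed in 0 genes (0% called; 3 at an unadjusted p under 0.05), with Gpm6b, a membrane glycoprotein of the nervous system, lowest in p at 751 and 1235 CPM (edgeR, log2 difference -0.65 ± 0.20, adjusted p = 0.283). Pcdhgc4, a protocadherin, followed with adjusted p = 0.986 in edgeR. COX1, a mitochondrial respiratory subunit, came next at 914 and 1300 CPM. The limit on mitochondrial UMIs read this gene, so nothing is read from its test. It was still fitted, and it counts among the 142 genes and the 3 at an unadjusted p under 0.05.

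Females and males differed in 2 genes (1.41% called), both higher in females. Ube2c was at 862 CPM in females and 512 CPM in males (edgeR, log2 difference 0.81 ± 0.22, adjusted p = 0.0489). It ran from 181 to 1359 CPM in female mates with a median of 915, and from 589 to 1369 in female peers with a median of 924. In male mates it ran from 373 to 1027 with a median of 547, and in male peers from 188 to 719 with a median of 387, so all 4 groups overlapped. Ckap5, a microtubule polymerase of the spindle, was at 926 and 579 CPM (edgeR, log2 difference 0.79 ± 0.22, adjusted p = 0.0489). Its medians were 711 CPM in female mates, 1134 in female peers, 588 in male mates and 366 in male peers, and male mates ran from 0 to 1494, so the groups overlapped again. Both calls were lost without female peer 3 (edgeR, adjusted p = 0.172 for Ube2c and 0.0735 for Ckap5) and without the filter on low counts (edgeR, adjusted p = 0.766 for each), and DESeq2 called 2 genes. With at least 10 nuclei per animal 1 gene was called, Ckap5 (edgeR, adjusted p = 0.0404), and Ube2c was not (0.125). These tests give the spread between animals, and animals that shared a cage may not be independent.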

How the data were processed

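The files hold raw UMI counts per gene and barcode, deposited by the authors for each of 40 animals. They were made with Cell Ranger 3.1.0, per the submitters' processing notes, and the aligner settings and genome build are not given in the sources used here. The files name 19130 genes. A minimum of 500 UMIs per barcode and an upper limit of 5% for 13 mitochondrial genes left 185995 of 194518 barcodes.

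Log-normalised counts were clustered with scanpy 1.11.5 (2000 features, 30 principal components, 15 neighbours, Leiden resolution 1) without the listed cycle genes. The cluster with the most cycling nuclei, of 6293 nuclei, was clustered again (1500 features, 15 components, resolution 0.6), and no other cluster was. The conditions for naming a cluster were set after the clusters were seen. Doublets were predicted per library at 0.8% of barcodes per 1000 barcodes and kept in the main values. Of the list genes, 120 of 144 cycle genes and 191 of 205 markers were found. The members and lists were chosen with earlier results of these data known.

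Shares were compared over animals by permutation (100000 resamples, or all arrangements for mates against peers within females or within males). Counts summed per animal were tested with edgeR 4.0.16 (TMM, quasi-likelihood, filter on low counts), and with DESeq2 1.42.0 as an alternative. Genes read by the rule or by the mitochondrial limit were not left out, so any that passed the filter count in the adjustment. Adjustment was by Benjamini-Hochberg with a threshold of 0.05. Named genes were those of the lists, the 10 genes with the highest ratio to other cycling nuclei in each class (5 CPM added, at least 20 UMIs), and the called genes, or the 3 with the lowest p where none was called. Replicate numbers follow accession order. The test was tried on simulated data. Some genes of the lists, which count in the list sums, are not reported here by name.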

Additional observations from a re-analysis of the deposited data

How the results depend on the processing

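Of 476 values under alternative settings, 426 kept their direction and their side of the threshold or, for counts, stayed close. The settings with 500 UMIs, a resolution of 2, the whole parent cluster, the share of the class, the sub-cluster led by cycle genes left out, non-cycling nuclei without rule UMIs, levels within single clusters, and female peer 3 left out were chosen after seeing the data. The cause of the changes was not tested. No paired analysis was possible because the labels give no replicate numbers shared between groups. Leaving out male mate 2 could not be applied to the edgeR fits, since its 3 cycling nuclei kept it out of them. Of the cycling nuclei 262 have fewer than 1000 UMIs, and thinning to that depth left out 2606 progenitor and immature neuron-like nuclei.

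Mates minus peers in the share of cycling nuclei, below 0 in the main setting, was 0.00884 points after thinning to 500 UMIs, 0.0101 without female peer 3 and -0.0192 without male mate 2. For progenitor and immature neuron-like nuclei it was 0.0139 after thinning to 500 UMIs, 0.0137 without female peer 3, -0.0164 without male mate 2, 0.00112 at a resolution of 2, 3.84 as a share of all cycling nuclei and 3.00 as a share of the class, where females gave 3.30 and the interaction 0.612. For microglia-like nuclei it was 0.00059955 after thinning to 1000 UMIs and 9.85e-05 at 500, and in females -0.0016 at a minimum of 3 UMIs, -3.78e-06 without doublets and -0.0428 as a share of cycling nuclei. For the Gfap-Igfbpl1 cluster, females minus males was -0.00546 at 3 UMIs, -0.145 as a share of cycling nuclei and -0.000738 after thinning to 500 UMIs, where mates minus peers in females was 0.000511. For oligodendrocyte precursor-like nuclei, females minus males was 0.00621 after thinning to 500 UMIs, mates minus peers in females 0.137 as a share of cycling nuclei, and the interaction -0.0178 with lineages from marker UMIs. None of these passed the threshold in either setting.

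Of the differences between classes, progenitor and immature neuron-like minus the Gfap-Igfbpl1 cluster, given with no test, was 2.81 at 3 UMIs and -5.92 without the sub-cluster led by cycle genes, where progenitor and immature neuron-like minus oligodendrocyte precursor-like was 0.426. Oligodendrocyte precursor-like minus microglia-like was 1.42 after thinning to 1000 UMIs, past the threshold no longer. Microglia-like minus astrocyte-like was 0.133 in the main setting and passed (permutation test, adjusted p = 0.0418), on 7 and 3 cycling nuclei. It was -0.101 after thinning to 1000 UMIs, 0.0984 at 500, 0.0840 at 3 UMIs, 0.115 without doublets and 0.0189 from marker UMIs, and passed in none of these. Astrocyte-like minus medium spiny neuron-like was -0.0397 in the main setting and passed (permutation test, adjusted p = 0.0252). It was 0.117 and 0.00175 after thinning to 1000 and 500 UMIs and -0.0041 at 3 UMIs, and passed in none of these. From marker UMIs it was 0.0878 and passed the threshold in the opposite direction (permutation test, adjusted p = 0.00114).

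The correlation of cycling with oligodendrocyte precursor-like nuclei was 0.629 after thinning to 1000 UMIs and -0.220 without the 2 farthest animals, and that within the class -0.101 without doublets and -0.0712 without the 2 farthest. The microglia-like one was 0.257 without the 2 farthest and 0.321 after thinning to 500 UMIs. Without the filter on low counts edgeR called 2 genes for mates against peers and 4 for females against males in all cycling nuclei, and 0 for females against males in the progenitor and immature neuron-like class, where at least 10 nuclei per animal gave 1 and leaving out female peer 3 gave 0.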
